A study of Mus musculus with 2 samples.

Results

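The genes described here drive the last part of the cell cycle, in which a cell condenses its chromosomes, builds a spindle, parts the chromosomes and divides its cytoplasm. They were taken from a list of 49 gene symbols, through probe sets whose annotation names exactly 1 gene. Of these, 46 were measured, by 81 probe sets, among 12393 genes in all. Ccnb1, Cdca8 and Espl1 had no single-gene probe set, so their RNA levels were not analysed here. The list was sorted by role into kinases and cyclins of mitotic entry, the kinetochore and spindle checkpoint, the chromosomal passenger complex, anaphase promotion, the spindle, cytokinesis, condensin and other chromosome structure.

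The cells were osteoblasts grown from the skull vault (calvaria) of C57Bl/6 mice 4 to 5 days old, measured on 2 Affymetrix expression arrays. The first is labelled Col1-Dlk1, for cells of mice that carry a Dlk1 transgene, and the second wild type, for cells of non-transgenic littermates. Each array holds RNA of 3 cultures pooled together, so there is 1 value per genotype and no spread between cultures, animals or litters. Col1-Dlk1 cells were enriched for Dlk1 by fluorescence-activated sorting, while the labels do not say whether wild-type cells were sorted too, which promoter drives the transgene or in which cells it is active.

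Mitosis starts when Cdk1 bound to cyclin B becomes active, helped by Polo and Aurora kinases. Kinetochores then attach chromosomes to spindle microtubules, and the spindle checkpoint holds back the anaphase-promoting complex until all are attached. Cdc20 then activates that complex, separase cuts cohesin, and a contractile ring placed by the central spindle divides the cell. Transcripts of many of these genes are known to peak in late G2 and mitosis and to be low in resting cells. In osteoblast cultures, proliferating progenitors express them and mature matrix-forming cells divide little.

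Many promoters of mitotic genes are known to carry a CHR element (cell cycle genes homology region) near the start of transcription, with CCAAT boxes, which the factor NF-Y binds, upstream of it. The stretches below run from 120 bases before to 20 bases after the annotated start, 140 bases each, and come from RefSeq promoter windows of build GRCm38.p6. They show 1 or 2 genes each of mitotic entry, the kinetochore and checkpoint, anaphase promotion, the spindle, cytokinesis and condensin and, last, Pttg1, whose gene-level value was nearly equal on both arrays. Capitals mark CHR elements (TTTGAA or TTCGAA) and CCAAT boxes, each also as its reverse complement (TTCAAA and ATTGG).
Ccnb2, chr9:70421535-70421674, minus strand: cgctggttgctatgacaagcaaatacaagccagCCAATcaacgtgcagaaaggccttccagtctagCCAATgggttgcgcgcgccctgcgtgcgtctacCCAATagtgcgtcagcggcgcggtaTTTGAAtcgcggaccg
Cdk1, chr10:69352893-69353032, minus strand: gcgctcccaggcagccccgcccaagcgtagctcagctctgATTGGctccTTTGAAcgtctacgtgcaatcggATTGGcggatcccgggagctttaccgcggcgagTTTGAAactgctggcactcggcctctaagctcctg
Bub1, chr2:127831840-127831979, minus strand: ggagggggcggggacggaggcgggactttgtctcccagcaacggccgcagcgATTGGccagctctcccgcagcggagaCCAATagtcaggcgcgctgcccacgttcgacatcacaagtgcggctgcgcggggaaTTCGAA
Cdc20, chr4:118437324-118437463, minus strand: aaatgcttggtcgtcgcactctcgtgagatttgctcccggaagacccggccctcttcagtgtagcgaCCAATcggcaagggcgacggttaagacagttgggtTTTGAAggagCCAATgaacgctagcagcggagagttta
Kif11, chr19:37376262-37376401, plus strand: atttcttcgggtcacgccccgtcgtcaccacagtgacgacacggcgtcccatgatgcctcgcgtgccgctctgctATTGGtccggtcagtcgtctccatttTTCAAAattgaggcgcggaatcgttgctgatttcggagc
Prc1, chr7:80294331-80294470, plus strand: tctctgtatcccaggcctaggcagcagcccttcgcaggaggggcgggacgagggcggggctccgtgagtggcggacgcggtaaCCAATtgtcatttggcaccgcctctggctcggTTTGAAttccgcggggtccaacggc
Ncapg, chr5:45669805-45669944, plus strand: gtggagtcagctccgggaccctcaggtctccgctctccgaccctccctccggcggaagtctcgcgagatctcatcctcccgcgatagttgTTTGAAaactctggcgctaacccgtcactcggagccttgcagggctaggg
Pttg1, chr11:43425962-43426101, minus strand: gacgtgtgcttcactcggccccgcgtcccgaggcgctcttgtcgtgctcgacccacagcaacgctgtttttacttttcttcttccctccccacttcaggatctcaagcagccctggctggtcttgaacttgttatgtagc

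In Ccnb2 the 3 CCAAT boxes start 87, 54 and 21 bases before the start, which places neighbours 33 bases apart, and the CHR begins at base 5 after it. The boxes of Cdk1 in this stretch lie 32 bases apart, and its CHR elements begin 71 and 15 bases before the start. Prc1 and Kif11 each show 1 CCAAT box followed by 1 CHR. No marked letters occur in the Pttg1 stretch, which says only that these letters are not in it. The 8 genes were picked by name, and the stretches do not show how the elements relate to the array values. Of the 6 members with neither element in the wider windows counted below, Pttg1 alone is printed. Melk, Mad2l1 and Birc5, also among these 6, were 12.5-fold, 6.09-fold and 5.34-fold lower on the Col1-Dlk1 array. Each stretch comes from the first listed window of its gene. Of 43 windows of members, the annotated start matched the 5′ end of the RefSeq gene in 19.

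Before the members, the labels and the cells were checked on the same arrays. Dlk1, by its only probe set, read 26.5 on the Col1-Dlk1 array and 306 on the wild-type array, against the label. Whether this probe set also detects the transgene was not checked. The directions given here therefore hold for the labels as deposited and would reverse if the labels were exchanged. The arrays are called the Col1-Dlk1 and wild-type arrays from here on, by label only. Of 10 measured osteoblast markers, Col1a1, Col1a2 and Sparc were bright on both arrays, 6 (among them Alpl, Ibsp and Dmp1) were below the level threshold defined below, and 1 (Omd) was lower on the Col1-Dlk1 array. All 20 macrophage markers were at least 2-fold higher on that array, with a summed intensity of 24374 against 322. Endothelial, erythroid and lymphocyte markers were below the threshold on both arrays, except Egfl7. Ratios of 3′ to 5′ control probe sets were 0.89 and 0.82 for Gapdh and 1.53 and 1.29 for beta-actin, Col1-Dlk1 first.

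Every one of the 46 measured members read lower on the Col1-Dlk1 array than on the wild-type array. Differences are given as log2(intensity + 10.96), Col1-Dlk1 minus wild type, and folds on this scale understate the difference of dim genes. Where 2 intensities are set against each other, the Col1-Dlk1 array comes first, and a gene that averaged a value has several probe sets. A gene was called higher or lower when its brighter value reached 42.8, the median of all values, and the difference was at least 2-fold. By this rule 42 of the 46 (91.3%) were called lower and none was called higher. Over all 12393 genes, 3.9% were called lower and 5.15% higher, and of the 6795 genes that passed the level threshold, 7.11% and 9.39%. The members and thresholds were chosen with earlier results of these data known, so this contrast in shares is not independent of these arrays. The median difference was -2.25 over all 46 members, a fold of 4.75, and 0.01 over all genes. With 1 array per genotype there is no replicate check, no test and no p-value, and the count describes these arrays only.

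Cenpe and Nusap1 passed the level threshold on neither array, and the other 44 passed it. Of these, 21 passed on both arrays, 20 of them called lower, and 23 passed only through the wild-type array. On the Col1-Dlk1 array, 6 members read below the pseudocount of 10.96, and their folds depend on it. Differences of 4-fold or more were found in 29 called members, and of 8-fold or more in 6. Those 6 are among 21 level-passing genes in all that were 8-fold or more lower. Of the 100 level-passing genes with the most negative differences, 29 are members. In bulk RNA, fewer dividing cells and less of each transcript per cell cannot be told apart. The macrophage markers moved in the opposite direction (20 of 20 higher), and their part in this result was not tested. The summed intensity of the 10 osteoblast markers was 15683 on the Col1-Dlk1 array and 13523 on the wild-type array. Sparc alone accounted for 7535 and 4818 of these sums, and 6 of the 10 markers differed in the negative direction, with a median of -0.10.

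**Figure D1:**
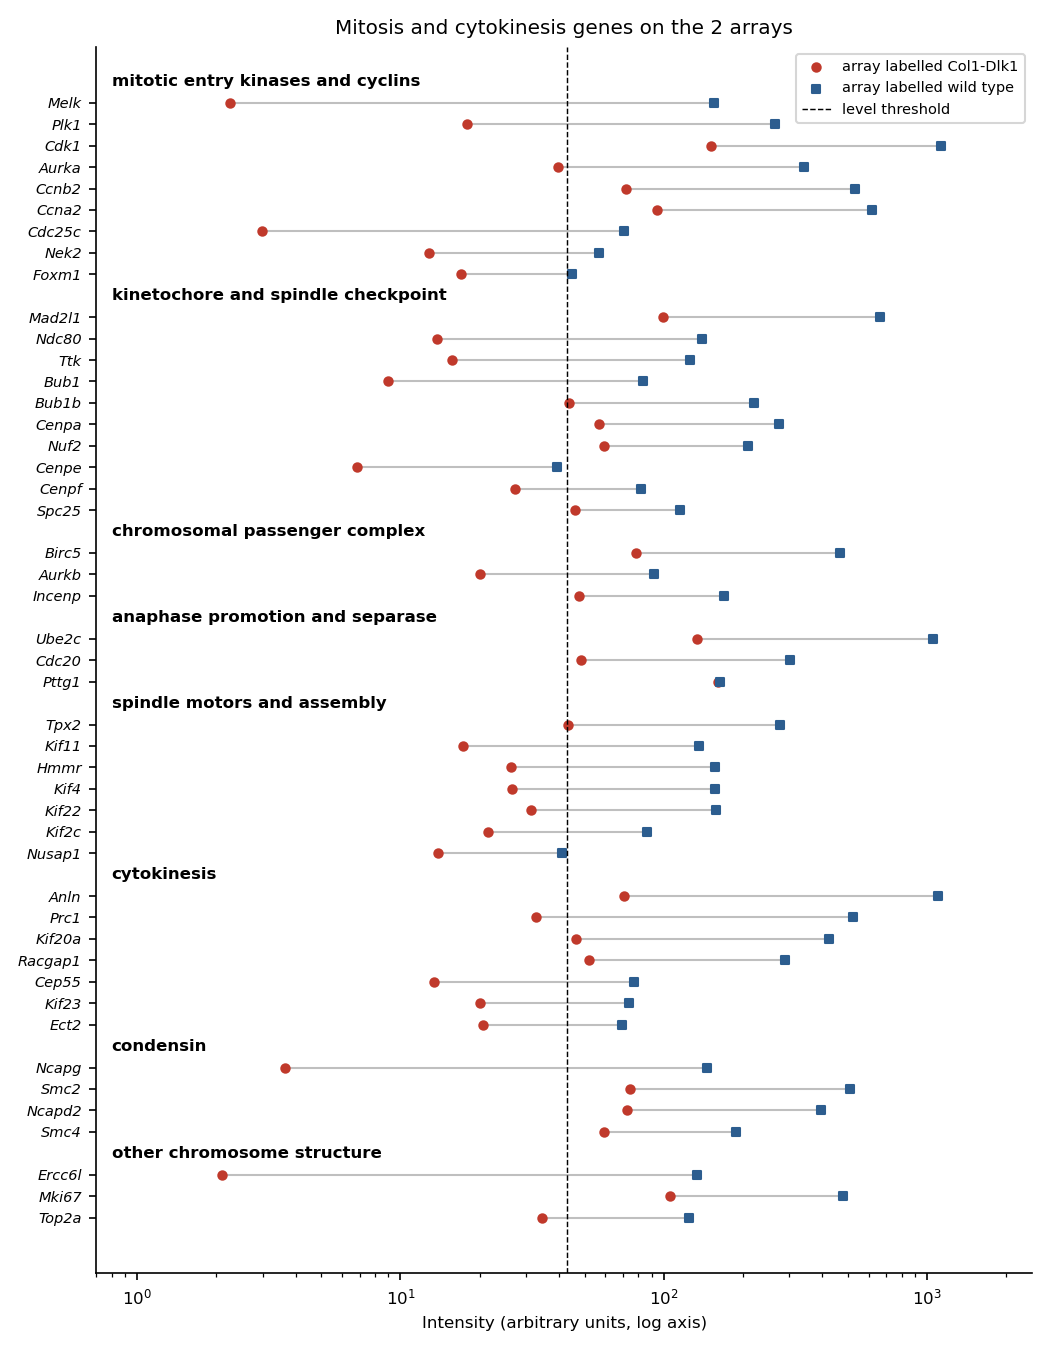
Intensity of each of the 46 measured members on the Col1-Dlk1 array (red circles) and the wild-type array (blue squares), on a log axis in arbitrary units, grouped by role; the dashed line is the level threshold of 42.8. Every circle lies left of its square, and the pair of Pttg1 nearly coincides.

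**Figure D2:**
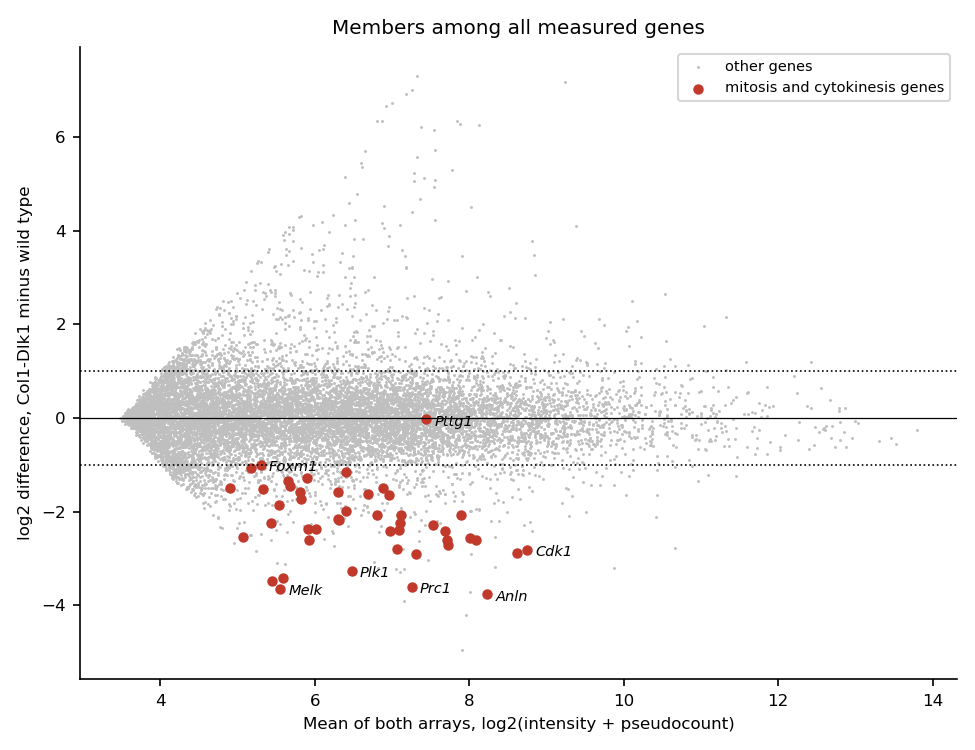
The log2 difference, Col1-Dlk1 minus wild type, against the mean log2 level of both arrays for 12393 genes (grey) and the 46 members (red); dotted lines mark 2-fold. The members lie below 0, from -3.77 (Anln) to -0.03 (Pttg1), and at neither the lowest nor the highest mean levels.

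The kinases and cyclins of mitotic entry had a median of -2.71, with 8 of 9 called lower. Cdk1, the kinase that starts mitosis, read 151 on the Col1-Dlk1 array and 1131 on the wild-type array, a difference of -2.82. Its partner cyclin Ccnb2 read 71.7 against 529.8 (-2.71). Cyclin A, encoded by Ccna2 and also active in S phase, read 94.6 against 615 (-2.57). The cyclins and their kinase were 5.93-fold to 7.05-fold lower.

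Plk1, the Polo kinase that acts from mitotic entry to cytokinesis, read 17.8 against 265 (-3.26). Aurka, the Aurora kinase of the centrosome and spindle poles, read 39.7 against 340.0 (-2.79). Melk, a kinase gene of dividing and progenitor cells, read 2.26 against 154 (-3.64). Of these 3 kinases, each was below the level threshold on the Col1-Dlk1 array only. Cdc25c, a phosphatase that activates Cdk1, read 2.97 against 70.3 (-2.54). Nek2, a kinase that parts the centrosomes, read 12.8 against 56.8 (-1.51), a smaller difference.

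Foxm1, a transcription factor that drives many G2 and mitosis genes, was the 1 gene of this role not called. It averaged 16.9 against 44.6, a difference of -0.996 that lies just under 2-fold. Of its 4 probe sets, 3 were lower on the Col1-Dlk1 array, at -1.77, -1.60 and -1.03. The fourth read 4.10 against 0.32 and so was below the threshold on both arrays. With the brightest probe set in place of the mean, or with median centring, quantile normalization or loess, Foxm1 was called lower.

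At the kinetochore and in the spindle checkpoint, 9 of 10 members were called lower, with a median of -2.08. By their gene means, the checkpoint genes lay close together. Mad2l1, which blocks Cdc20 until chromosomes attach, read 99.3 against 659.8 (-2.61). Ttk, the kinase that starts checkpoint signalling, read 15.6 against 126 (-2.37). Bub1b, which encodes the checkpoint protein BubR1, read 43.7 against 219 (-2.08). Bub1, a kinase of the same pathway, averaged 8.93 against 83.6 (-2.25). All 4 checkpoint genes were more than 4-fold lower.

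The structural kinetochore genes were spread more widely by their means. However, the means of Spc25, Cenpf and the checkpoint gene Bub1 each include a dim probe set. Their brighter probe sets gave -2.04, -2.28 and -3.36, so this contrast with the checkpoint genes depends on the averaging. Within the Ndc80 complex, which holds microtubules, Ndc80 read 13.8 against 139 (-2.60), Nuf2 read 59.3 against 209 (-1.65), and Spc25 averaged 46.0 against 115 (-1.15). Spc24, its remaining subunit, was not measured. Cenpa, the histone variant that marks centromeres, read 56.8 against 275 (-2.08). Cenpf, a large outer kinetochore protein, averaged 27.2 against 82.1 (-1.29). The motor gene Cenpe read 6.86 against 39.3 (-1.50) and was too dim for a call on either array.

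The chromosomal passenger complex corrects wrong attachments and later acts at the central spindle, and all 3 of its measured members were called lower. Birc5, which encodes survivin, read 78.4 against 466 (-2.42). Aurkb, the kinase of the complex, averaged 20.0 against 91.5 (-1.73). Incenp, its scaffold, averaged 47.7 against 169 (-1.62).

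Anaphase promotion held the member with the smallest difference of all 46. Ube2c, the ubiquitin-conjugating enzyme of the anaphase-promoting complex, read 133 against 1055 (-2.88). Cdc20, the activator of that complex, averaged 48.3 against 301 (-2.39). Its brighter probe sets read 116 against 1109 (-3.14) and 103 against 886 (-2.97), and a dim one read 3.40 against 19.2 (-1.07). Pttg1, which encodes securin, the inhibitor of separase, averaged 161 against 164 (-0.03). Its 3 probe sets read 178 against 195 (-0.12), 960.0 against 1745 (-0.85) and, dim on both arrays, 16.6 against 3.88 (0.89). None of them reached 2-fold. Within this role Pttg1 alone stayed within 2-fold, and the difference from the other members was not tested.

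Of the 7 spindle members, 6 were called lower, with a median of -2.16. Tpx2, a spindle assembly factor that activates Aurka, averaged 43.3 against 277 (-2.41). Kif11, the kinesin that pushes spindle poles apart, averaged 17.3 against 136 (-2.37), with 3 probe sets between -2.45 and -2.30. Hmmr, a spindle-associated protein, averaged 26.4 against 157 (-2.17). By their gene means, these spindle assembly genes were between 4.50-fold and 5.31-fold lower, although the 4 probe sets of Hmmr ran from -3.04 to -1.64.

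The chromosome-bound kinesin Kif4 read 26.4 against 156 (-2.16). Kif22, another kinesin of chromosome arms, averaged 31.4 against 158 (-1.99). Kif2c, which depolymerises microtubules at centromeres, averaged 21.5 against 86.6 (-1.59). Nusap1, a microtubule-bundling protein, averaged 13.9 against 41.1 (-1.07) and was below the threshold. Its first probe set read 34.3 against 189 (-2.14) and the other 2.73 against 2.64 (0.01), so the mean joins a bright and an almost signal-free probe set.

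All 7 cytokinesis members were called lower, with a median of -2.25 and the widest range among the groups in which every member was called. Anln, which encodes the contractile ring protein anillin, read 70.7 against 1101 (-3.77), the most negative difference of any member. Prc1, which bundles microtubules of the central spindle, averaged 32.8 against 523 (-3.61). Kif20a, a kinesin of the central spindle, read 46.6 against 423 (-2.91). These 3 genes act at the central spindle or the ring it positions, and were 7.54-fold to 13.6-fold lower.

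The other 4 differed less. Racgap1 and Kif23 together form centralspindlin, which recruits the ring's activators to the midzone. Racgap1 averaged 51.8 against 288 (-2.25), and Kif23 averaged 20.1 against 73.9 (-1.45). Ect2, the exchange factor that activates RhoA at the ring, read 20.6 against 69.3 (-1.35). Cep55, which recruits the abscission machinery to the midbody, averaged 13.4 against 77.4 (-1.86).

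All 4 condensin members were called lower, with a median of -2.45. Ncapg, a subunit of condensin I, averaged 3.63 against 146 (-3.43), by probe sets of -3.82 and -3.03. Ncapd2, of the same complex, read 72.3 against 396 (-2.29). Smc2 and Smc4 form the core of both condensins. Smc2 read 74.2 against 508 (-2.61), while Smc4 averaged 59.5 against 188 (-1.50), with its 3 probe sets between -1.56 and -1.42. The partners of the core thus differed by unequal amounts, although both were called.

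Among other chromosome proteins, all 3 were called lower. Ercc6l, a helicase of chromatin threads between parting chromosomes, read 2.10 against 134 (-3.47). Mki67, which encodes the proliferation antigen Ki-67, read 105 against 478 (-2.07). Top2a, the topoisomerase that untangles sister chromatids, averaged 34.6 against 125 (-1.58).

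Set side by side, the spindle, kinetochore, condensin and cytokinesis groups had medians of -2.16, -2.08, -2.45 and -2.25. Their ranges overlapped in part, at -2.41 to -1.07, -2.61 to -1.15, -3.43 to -1.50 and -3.77 to -1.35. The medians lay closer together than the members within any of these groups, and members are not replicates, so no order among the roles can be read from them. By gene means, differences beyond -3, that is 8-fold, were found for cytokinesis (Anln, Prc1), condensin (Ncapg), mitotic entry (Melk, Plk1) and chromosome structure (Ercc6l). Single probe sets of Bub1 (-3.36), Cdc20 (-3.14) and Hmmr (-3.04) also lay beyond -3. The roles in this list therefore depend on the averaging of probe sets.

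Probe sets of 1 gene repeat the measurement on the same RNA and show how firm each mean is. Of the 81 probe sets, 78 were lower on the Col1-Dlk1 array, and the 3 that were higher (1 each of Foxm1, Nusap1 and Pttg1) read under the level threshold on both arrays. Among 22 members with several probe sets, 19 had all of them lower. Pairs of probe sets of 1 member lay a median of 0.75 apart over 51 pairs, against 0.41 over 12821 pairs of all genes. In 13 members the probe sets spanned more than 1 log2 unit. In 10 of these the least negative (or most positive) difference came from a probe set below the threshold on both arrays. Top2a is an example, with 147 against 954 (-2.61) on one probe set and 2.17 against 8.14 (-0.54) on the other. Bub1 likewise gave -3.36 and -1.14, Cenpf -2.28 and -0.29, and Spc25 -2.04 and -0.25. For these genes the printed means lie between a large difference on a bright probe set and a small one on a dim probe set.

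**Figure D3:**
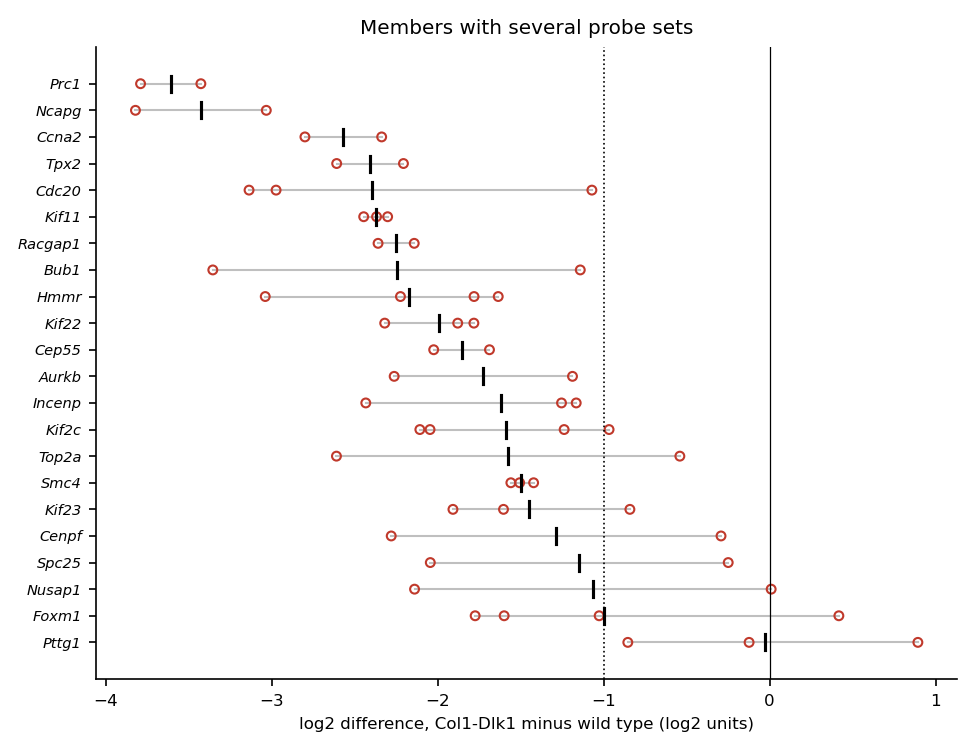
The log2 difference, Col1-Dlk1 minus wild type, of each probe set (circles) and their mean (black tick) for the 22 members with several probe sets; the dotted line marks 2-fold lower. Kif11, Smc4 and Racgap1 are narrow, while Bub1, Foxm1, Nusap1, Cdc20 and Top2a spread over more than 2 log2 units.

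Genes of the same processes outside the member list came from 7 further lists, also chosen with earlier results of these data known. Of 131 listed, 100 were measured, of which 30 were called lower and 1 higher, with a median of -0.51. Of 19 spindle and centrosome genes, 11 were called lower, led by Ckap2, a microtubule-associated protein (79.7 against 418, -2.24), Dlgap5 (36.4 against 188, -2.07), Haus4, an augmin subunit (41.1 against 179, -1.87), and Plk4, the kinase of centriole duplication (26.5 against 123, -1.84). Of 19 kinetochore and centromere genes, 9 were called lower. Sgo1, which protects centromeric cohesin, read 4.52 against 122 (-3.10), and the inner kinetochore genes Cenph, Cenpm and Cenpn read 13.5 against 103, 21.1 against 117 and 35.9 against 168. Other subunits stayed within 2-fold, such as Cenpt (-0.13), Zw10 (0.05) and Mis12 (0.27), which were picked after their values were seen.

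Cohesin, abscission and the core of the anaphase-promoting complex lay mostly within 2-fold. Over all 12393 genes, 3.9% were called lower and 5.15% higher, and a low count in these lists does not set them apart. Of 12 other condensin and cohesin genes, only Cdca5, which encodes the cohesion factor sororin (-1.70), and the condensin I subunit Ncaph (-1.60) were called lower. Ncapg2 of condensin II differed by -0.96 and the cohesin subunit Rad21 by -0.90. Of 15 genes of cytokinesis and abscission, none was called in either direction, and their median was 0.07. Septin2 read 150.3 against 69.9 (0.996), Vps4b 318 against 465 (-0.53), Septin9 454 against 361 (0.32) and Septin11 204 against 162 (0.32). Of 15 genes of the anaphase-promoting complex, 1 was called lower, Anapc5, with 658 against 1484 (-1.16). Anapc15, Anapc1 and Ube2s differed by -0.78, -0.74 and -0.63.

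Of 11 regulators of mitotic entry, 5 were called lower and 1 higher. The lower ones were Ccnf (8.65 against 92.7, -2.40), the Cdk1-binding Cks2 (194 against 942, -2.22) and Cks1b (-1.16), the kinase gene Mastl (-1.85) and the Cdk1-inhibiting kinase gene Pkmyt1 (-1.19). Ensa, a phosphatase inhibitor that Mastl activates, was higher, with 242 against 112 (1.04). The MuvB complex binds CHR elements, with B-Myb in dividing cells and with E2F4 and a pocket protein in resting ones. Of 9 measured genes of this group, 2 were called lower, Mybl2, which encodes B-Myb (12.5 against 53.8, -1.47), and Tfdp1 (229 against 592, -1.33). Rbl1 and E2f4 differed by -0.93 and -0.46.

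Earlier cell cycle steps were set beside the members. Of 27 DNA replication genes, 23 were called lower and none higher, with a median of -1.62 and a range of -2.44 to 0.36. Of 15 G1 cyclins and inhibitors of cyclin-dependent kinases, 1 was called lower (Cdkn1c, -1.22) and 3 higher, with a median of -0.39. The 3 were Cdkn1a, which encodes the inhibitor p21 (2360.5 against 555, 2.07), Cdkn2b, which encodes p15 (594 against 179, 1.67), and Ccnd1 (1.15).

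**Figure D4:**
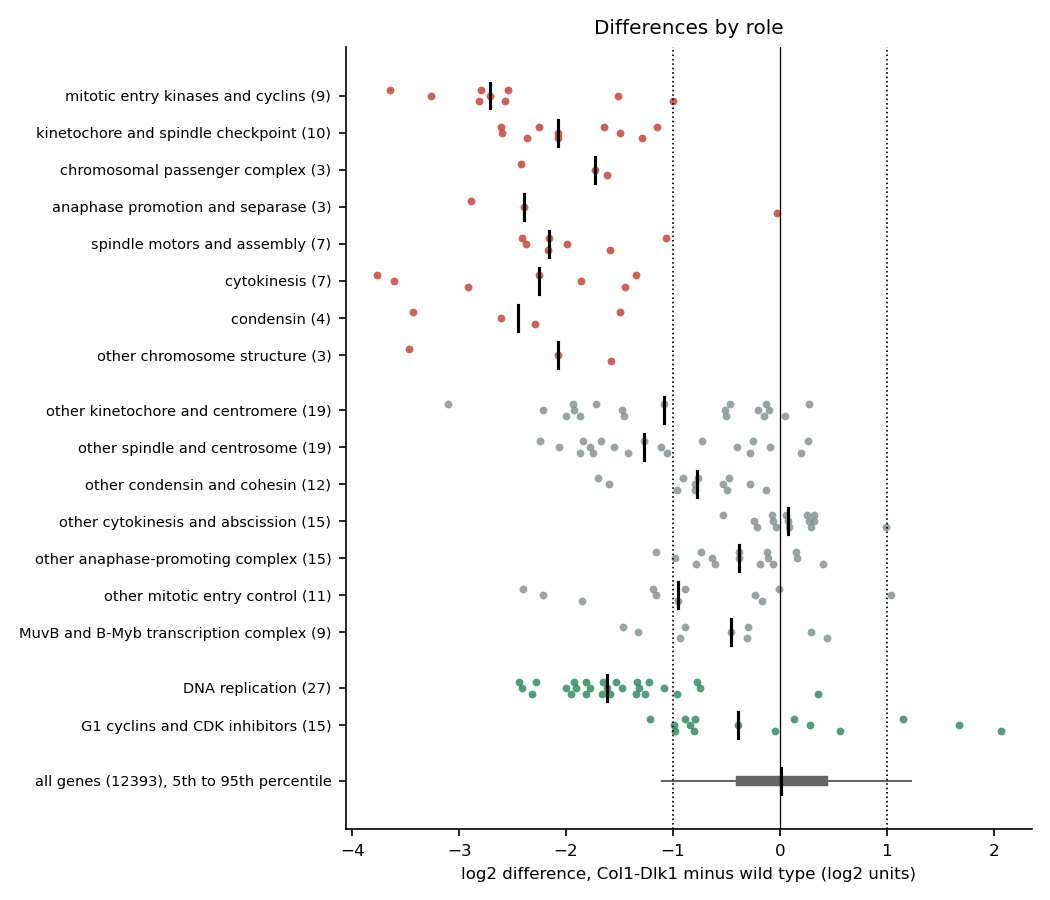
The log2 difference, Col1-Dlk1 minus wild type, of each measured gene by role, for members (red), other mitosis genes (grey) and earlier cell cycle steps (green), with black ticks at medians and gene numbers in brackets. The last row gives all 12393 genes as 5th to 95th percentile (thin line, -1.10 to 1.23) and quartiles (thick line), and the member medians all lie left of that range.

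The promoter elements printed above were counted in windows from 250 bases before to 50 after the annotated start, with a gene counted once over all its windows. RefSeq windows were given for 40 of the 49 members, among them Ccnb1, Cdca8 and Espl1, which have no array value here but count in the shares below. A CHR was found in 31 of the 40 (77.5%), against 21.7% of 27025 genes with a window. It lay within 50 bases upstream of the start or in the 50 after it in 28 (70.0%), against 6.12% of all genes. A CCAAT box was found in 30 (75.0%, against 41.1%), at least 2 in 20 of 40 (against 13.3%), and both kinds of element in 27 (67.5%, against 8.61%). The E2F-type letters TTTCCCGC, TTTGGCGC, TTTCGCGC and TTTGCCGC, on either strand, occurred in 3 (7.50%, against 2.60%). None of the searched words contains another, though neighbouring matches may share bases, and a match is a description of the sequence, not evidence that a factor binds it.

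By role, the CHR letters were found in all 6 cytokinesis, all 3 condensin, 5 of 6 spindle, 7 of 10 kinetochore and checkpoint and 4 of 7 mitotic entry genes with a window. In the other mitosis genes they were found in 47 of 110 (42.7%), and in the abscission and anaphase-promoting complex lists in 5 of 18 and 4 of 16. The 29 measured members with a CHR were all called lower, with a median of -2.25. Of the 8 measured members without one, 5 were called lower, with a median of -1.58 and a range of -3.64 (Melk) to -0.03 (Pttg1). Besides Pttg1, those not called were Cenpe (-1.50) and Nusap1 (-1.07). Both were more than 2-fold lower but below the level threshold on both arrays. Over all genes 3.9% were called lower, and this share was not computed apart for genes with and without a CHR. Members are not replicates, and a link between the element and the difference was not tested. Of the 6 members with neither element in the window, Melk, Mad2l1 and Birc5 were more than 4-fold lower, Nuf2 differed by -1.65 and was called, and Nusap1 (-1.07) and Pttg1 (-0.03) were not called.

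**Figure D5:**
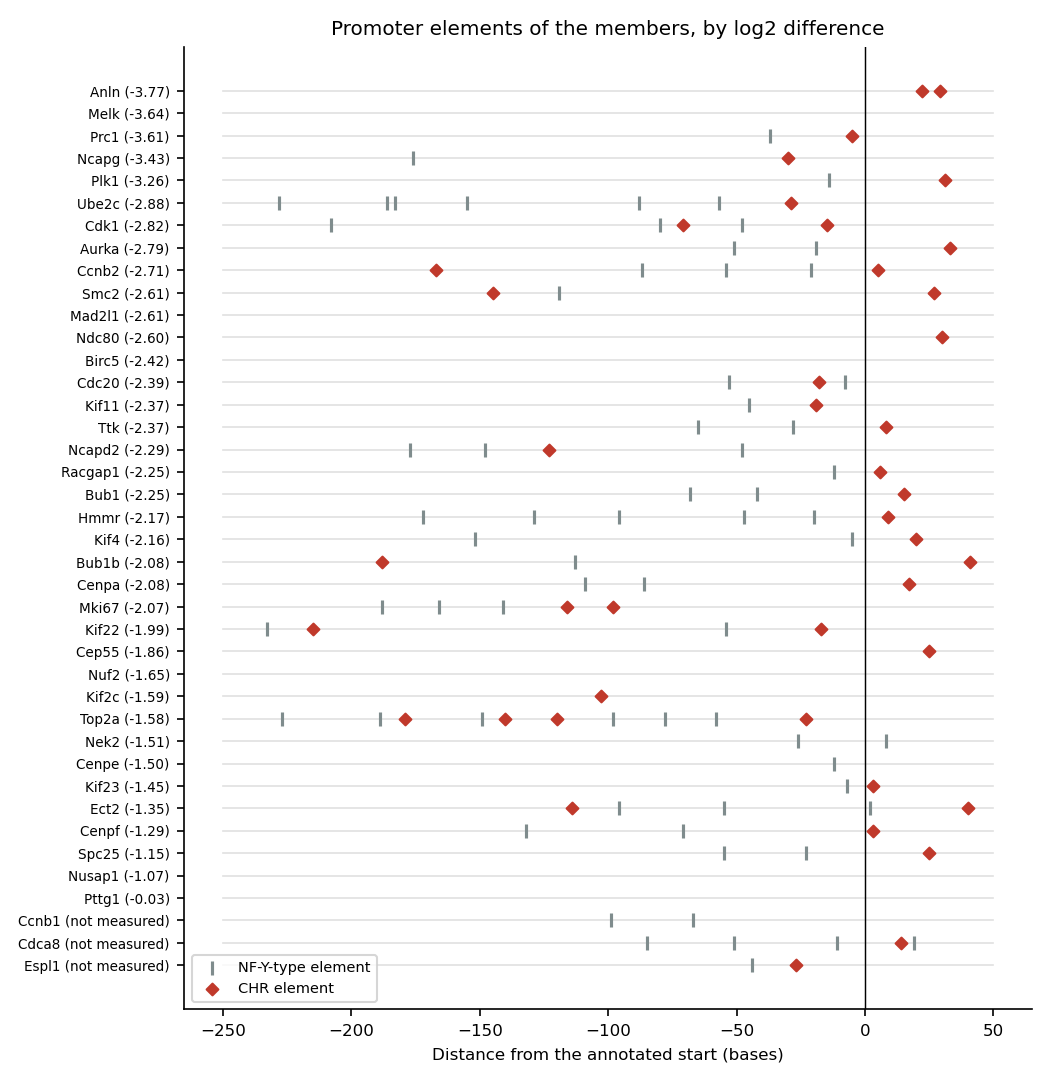
First base of each CHR element (red diamonds) and CCAAT box (NF-Y-type element, grey ticks), in bases from the annotated start, in the first listed window of 40 members, ordered by log2 difference (in brackets). CHR elements gather around the start, and CCAAT boxes lie mostly before it.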

How the data were processed

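The authors deposited linear probe-set intensities. The submitters' processing notes name Affymetrix Expression Console 1.1.1, and no source used here names the algorithm, background correction or scaling target. After trimming 2% of values at each end, the mean intensity was 150.06 and 150.07 on the Col1-Dlk1 and wild-type arrays. The table holds 22690 probe sets, of which 20380 name 1 gene, and 20351 of these matched RefSeq gene IDs, which gave current symbols.

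The log2(intensity + 10.96) values used here, with the 25th percentile of all values as pseudocount, were computed from the deposited intensities. Probe sets of 1 gene were averaged on this scale, and printed gene intensities are those averages turned back. Detection calls were not used, and the number of arrays (1 per genotype) limits the precision. The members, lists, roles and thresholds were chosen with earlier results of these data known. Every measured member is accounted for. Of the other mitosis genes, up to 4 level-passing genes per role with the largest absolute difference are named, and a few more were named after their values were seen. The marker lists for osteoclasts and for smooth muscle and pericytes had 2 of 6 genes higher and 1 of 8 lower. The calling steps were run on values simulated from the wild-type array with set differences. This checks the code, not the spread between arrays. Alternatives covered scaling, pseudocount, level, fold, probe sets and symbols. Python 3.11.15, numpy 2.4.6, pandas 2.3.3, statsmodels 0.14.6 and matplotlib 3.10.9 were used.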

Additional observations from a re-analysis of the deposited data

Results flagged for a closer look

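A probe set that names Foxm1 together with other genes is used in no comparison and gave a signal on the wild-type array. It read 23.8 on the Col1-Dlk1 array and 113 on the wild-type array, and these differ by -1.83 on the log2 scale. Samples within a group could not be compared, since a genotype has 1 array.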

How the results depend on the processing

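No paired analysis was possible because a genotype has a single array, which also leaves no replicate to omit. Over 13 alternatives no member changed direction while called, none was called higher, and 21 of the 42 called members were called lower under every one. The count called lower ranged from 22 to 44. It was 22 with the level threshold at the 75th percentile, where 1.90% of all genes were called lower, and mitotic entry, kinetochore, spindle, cytokinesis and other chromosome structure then gave 5, 4, 1, 4 and 1. It was 35 with a pseudocount of 50 (4 of them in cytokinesis), which drew the median over all members to -1.49, and 35 with a 3-fold rule. With a pseudocount of 50 the medians were -2.12 for mitotic entry, -1.37 for kinetochore, -1.20 for chromosomal passenger, -1.93 for anaphase promotion, -1.43 for spindle, -1.71 for cytokinesis and -1.87 for condensin. A pseudocount of 1 gave -2.84 for anaphase promotion and -2.72 for cytokinesis. These shifts follow from the pseudocount itself, which shrinks the differences of dim genes. With the brightest probe set the medians were -2.42 for chromosomal passenger, -2.88 for anaphase promotion and -2.61 for other chromosome structure. Anaphase promotion was also at -2.88 without the less specific probe sets (_x_at and _s_at). Low signal limits Melk, Cdc25c, Ncapg, Ercc6l, Bub1 and Cenpe, which read below the pseudocount on the Col1-Dlk1 array.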
